A study of Mus musculus with 6 samples.

Results

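Cells attach to the matrix around them through integrins, and the genes described here encode both sides of that contact. They are the protein-coding genes for the laminin chains and for the numbered integrin α and β subunits, together with Itgav, Fn1, Nid1, Nid2, Hspg2, Agrn, Vtn, Tnc, Spon1 and Spon2. The rule goes by symbol and uses no measured value, although the group was proposed with earlier results of these data known. The rule found 41 genes, 20 of them matrix ligands and 21 integrin subunits, among 55471 gene identifiers in the count tables, of which 21974 were protein-coding. Integrin subunits whose symbol carries a letter, such as Itgal and Itgam, lie outside the rule, except Itgav.

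The study measured messenger RNA in mouse epiblast stem cells, which are pluripotent cells resembling the embryo's epiblast just before gastrulation. The tested cells were from a line in which the transcription factor Mixl1 could be induced, and they received 1 µg/mL doxycycline for the last 24 h (Mixl1-induced, 3 libraries). The other cells were labelled as a Mixl1 knockout (Mixl1 KO, 3 libraries), and the labels do not say whether they also received doxycycline, how many clones were used, or whether both lines had the same parent. Both groups were collected after 2 days of differentiation in serum as embryoid bodies, from stocks kept on irradiated mouse embryonic fibroblasts with 10 ng/mL bFGF and 20 ng/mL Activin A. The labels give 24 h of aggregation for both groups. Nothing in the labels says that the replicates were separate cultures, so the p-values below measure the spread between these libraries, which may be technical.

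Laminins are cross-shaped trimers of one α, one β and one γ chain that assemble into the sheet of a basement membrane. Nidogens, perlecan (Hspg2) and agrin join that sheet to collagen IV and to the cell surface, while fibronectin (Fn1) forms a fibrillar matrix. Integrins are pairs of one α and one β subunit, and the α subunit largely sets which ligand is bound. At gastrulation, epiblast cells that become mesoderm leave the basement membrane beneath the epiblast and migrate through a space rich in fibronectin, and mouse embryos without Fn1 have defects in mesoderm.

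The libraries held 17490426 to 21026423 reads on genes. Mixl1 itself had 427, 441 and 429 counts per 1000000 reads on genes (CPM) in the Mixl1-induced libraries, against 39.9, 36.8 and 42.7 CPM in the Mixl1 KO libraries (log2 fold change 3.44, SE 0.0546, adjusted p = 1.66e-22), which follows the labels, although transcript was still counted in the line labelled knockout. Epiblast markers were present in both groups, and their sum over 10 genes was 1589, 1527 and 1567 CPM in the Mixl1-induced libraries, against 2323, 2231 and 2166 CPM in the Mixl1 KO libraries. The third Mixl1-induced library was the lowest of its group for 33 of 39 tested members (84.6%), against 38.0% of all tested genes, and the third Mixl1 KO library was the lowest of its group for 21 of 39 (53.8%), against 35.0%. Since these are bulk samples, fewer cells of a type and less RNA per cell cannot be told apart in any value below.

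Most of these genes differed between the groups, and in both directions. Of the 41 members, 39 had enough reads to be tested, and 22 were higher and 14 lower in Mixl1-induced cells at an adjusted p under 0.05. Over all 15091 genes tested, 31.0% were higher and 31.6% lower, so calls were common everywhere. The members' shares were 56.4% higher and 35.9% lower, and among the 10077 tested genes with at least 10 CPM in either group the shares were 36.4% and 32.0%. The median absolute log2 fold change was 0.82 over the 39 members and 0.32 over all tested genes, and the signed medians were 0.29 and 0.00. The ranges of the groups were separate for 21 higher and 13 lower members, against 33.3% and 33.7% of all tested genes. When the change itself was tested against a 2-fold threshold, 4.25% of all genes passed as higher and 6.53% as lower. The members that passed this stricter test were Lama1, Fn1, Spon1, Itga3 and Itgb5 as higher, and Lamb3, Lamc3, Itga1, Itga11, Itgb2 and Itgb3 as lower.

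**Figure D1:**
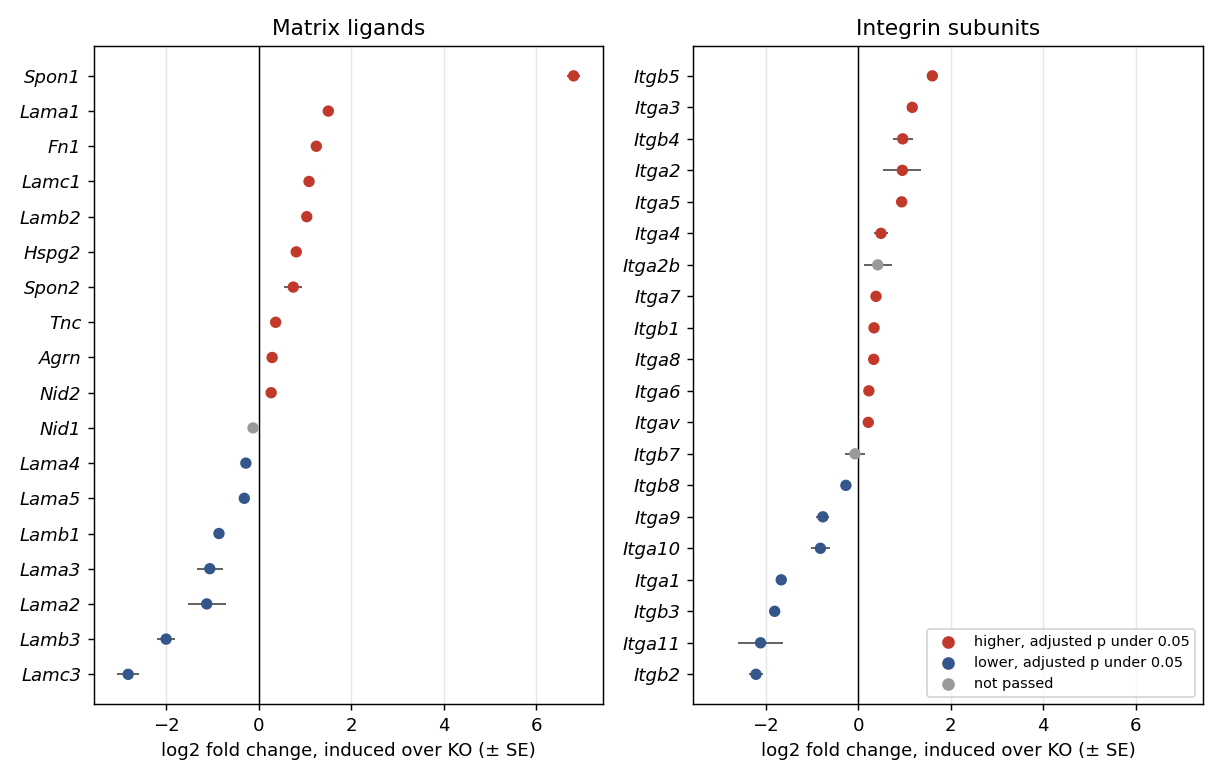
Log2 fold change of tested members, Mixl1-induced over Mixl1 KO, with its standard error, for the matrix ligands named in the text (left) and the integrin subunits (right), ordered by size. Spon1 stands far to the right at 6.81, and on both sides of the contact some members were called higher and others lower.

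Ligands and integrins were called in like proportions. Of 19 tested ligands 11 were higher, 7 lower and 1 did not pass, with a median log2 fold change of 0.29, and of 20 tested integrin subunits 11 were higher, 7 lower and 2 did not pass, with a median of 0.28. By abundance, of the 14 ligands with at least 10 CPM in either group 10 were higher and 3 lower, and of the 5 below that level 1 was higher and 4 lower. Among integrins the same split gave 8 higher and 4 lower of 12, and 3 higher and 3 lower of 8.

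**Figure D2:**
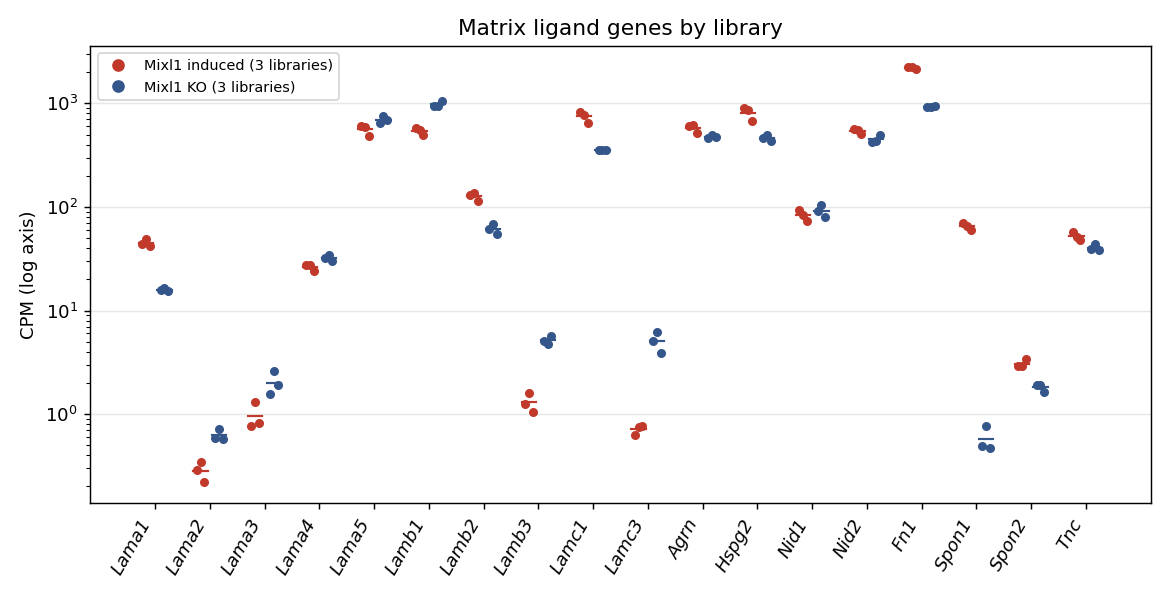
CPM of the tested matrix ligands named in the text in each library on a log axis, with a bar at the group mean; Mixl1-induced libraries stand left of Mixl1 KO libraries for each gene. Fn1 lies between 2128 and 2261 CPM in Mixl1-induced libraries, and Spon1 shows the widest gap between groups.

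Among the laminin α chains, Lama1 was higher and Lama5, Lama4, Lama3 and Lama2 were lower in Mixl1-induced cells. Lama1, which with Lama5 builds the earliest basement membranes of the mouse embryo, had 44.2, 49.3 and 42.3 CPM in the Mixl1-induced libraries, against 15.9, 16.4 and 15.6 CPM in the Mixl1 KO libraries. Every Mixl1-induced library was above every Mixl1 KO library, and the difference was 2.84-fold (log2 fold change 1.5, SE 0.0749, adjusted p = 9.43e-14). Lama1 lies on chromosome 17 from 67697259 to 67822647 on the plus strand (ENSMUSG00000032796.8) (mm10). Lama5, the α chain with the most reads per kb of exon, had 599, 595 and 486 CPM in the Mixl1-induced libraries, against 652, 750.0 and 686 CPM in the Mixl1 KO libraries. The groups did not overlap, but the difference was small (log2 fold change -0.31, SE 0.0800, adjusted p = 0.00552). Lama3, an α chain of epithelial hemidesmosomes, had 0.771, 1.31 and 0.819 CPM in the Mixl1-induced libraries, against 1.56, 2.59 and 1.89 CPM in the Mixl1 KO libraries and was 2.08-fold lower (log2 fold change -1.06, SE 0.281, adjusted p = 0.0024). Lama4, an α chain of vessel and mesenchymal basement membranes, averaged 26.4 ± 2.12 CPM in Mixl1-induced and 32.0 ± 1.90 CPM in Mixl1 KO libraries (log2 fold change -0.28, adjusted p = 0.00267; SD, n = 3 each). Lama2, the muscle α chain, was near the limit of measurement at 0.284 ± 0.0624 CPM in Mixl1-induced and 0.627 ± 0.0776 CPM in Mixl1 KO libraries (log2 fold change -1.13, adjusted p = 0.022), and this call was lost without Mixl1-induced replicate 1 or 3 (adjusted p = 0.0569 and 0.082) or without Mixl1 KO replicate 2 (adjusted p = 0.0768).

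Among the β chains, Lamb2 was higher and Lamb1 and Lamb3 were lower. Lamb1, the β chain of the early embryonic laminins, had 577, 553 and 491 CPM in the Mixl1-induced libraries, against 951, 935 and 1058 CPM in the Mixl1 KO libraries. All 3 Mixl1-induced libraries were below all 3 Mixl1 KO libraries, and the gene was 1.82-fold lower (log2 fold change -0.86, SE 0.0593, adjusted p = 5.49e-10). Lamb2, which takes the place of Lamb1 in laminins of the kidney filter and the neuromuscular junction, had 129, 136 and 115 CPM in the Mixl1-induced libraries, against 61.1, 68.3 and 55.3 CPM in the Mixl1 KO libraries. It was 2.05-fold higher (log2 fold change 1.04, SE 0.0747, adjusted p = 1.04e-08), with no overlap. Lamb3, the β chain that pairs with Lama3 in skin, had 1.25, 1.6 and 1.04 CPM in the Mixl1-induced libraries, against 5.12, 4.74 and 5.74 CPM in the Mixl1 KO libraries and was 4.01-fold lower (log2 fold change -2.0, SE 0.197, adjusted p = 1.08e-08).

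Because Lamb1 and Lamb2 went opposite ways, their promoters are shown, with 250 bases before and 50 after the annotated start from RefSeq (GRCm38.p6), 5′ to 3′. Capitals mark TAAT on either strand, the core letters that homeodomain proteins such as Mixl1 bind; the search counted overlapping matches.
Lamb1 promoter, chr12:31265043-31265342, plus strand: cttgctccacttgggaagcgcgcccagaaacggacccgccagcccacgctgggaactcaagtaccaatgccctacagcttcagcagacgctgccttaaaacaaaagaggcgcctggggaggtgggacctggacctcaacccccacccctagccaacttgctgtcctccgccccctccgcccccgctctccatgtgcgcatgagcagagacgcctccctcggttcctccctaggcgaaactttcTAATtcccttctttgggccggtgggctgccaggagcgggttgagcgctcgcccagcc
Lamb2 promoter, chr9:108479612-108479911, plus strand: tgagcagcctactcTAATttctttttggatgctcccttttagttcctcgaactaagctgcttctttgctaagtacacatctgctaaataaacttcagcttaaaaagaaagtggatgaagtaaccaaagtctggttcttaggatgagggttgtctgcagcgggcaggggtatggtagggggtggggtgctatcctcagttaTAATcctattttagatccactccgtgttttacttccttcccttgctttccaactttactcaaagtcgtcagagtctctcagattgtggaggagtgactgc
The Lamb1 window holds 1 match and the Lamb2 window 2. RefSeq promoters were found for 26 of the 41 members, and 12 of the 26 hold TAAT in at least 1 listed promoter. Of all 32851 promoters of this length, 58.0% hold it. The first value counts genes, some with more than 1 promoter, and the second counts promoters, so they are not like for like. The palindrome TAATTA occurs in 5.29% of all promoters and the palindromic paired-homeodomain site TAATNNNATTA, which like it contains TAAT, in 0.487%, and none of the 26 members' windows holds either. The GC box GGGCGG, in 35.7% of all promoters, has 2 matches at Lamb1 and 0 at Lamb2. TATAA, in 24.9% of all and able to overlap TAAT, has 0 at Lamb1 and 2 at Lamb2. Both were searched on either strand. The 2 TATAA matches at Lamb2 are the same stretch, TTATAA, read on each strand, and it overlaps 1 of the TAAT matches. These matches describe the letters in the windows only.

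Of the γ chains, Lamc1 was higher and Lamc3 lower. Lamc1, the γ chain of most laminins, had 832, 769.6 and 641 CPM in the Mixl1-induced libraries, against 352, 351 and 353 CPM in the Mixl1 KO libraries. It was 2.13-fold higher (log2 fold change 1.09, SE 0.0780, adjusted p = 1.82e-07), and the Mixl1 KO libraries lay within 2 CPM of each other. It lies on chromosome 1 from 153218922 to 153332786 on the minus strand (ENSMUSG00000026478.14). Lamc3, a γ chain of low abundance, had 0.627, 0.743 and 0.764 CPM in the Mixl1-induced libraries, against 5.12, 6.17 and 3.90 CPM in the Mixl1 KO libraries and was 7.09-fold lower (log2 fold change -2.83, SE 0.241, adjusted p = 1.06e-09).

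In total, 4 of 11 laminin chains were higher and 7 lower, with a median log2 fold change of -0.31, and the makeup of each chain class differed between the groups. Levels of different genes were compared as CPM per kb of exon. Of the α chain total, Lama5 made up 87.6% ± 0.727 in Mixl1-induced and 93.1% ± 0.282 in Mixl1 KO libraries, and Lama1 8.36% ± 0.629 in Mixl1-induced and 2.51% ± 0.133 in Mixl1 KO libraries (SD, n = 3 each). Of the β chain total, Lamb2 made up 27.5% ± 0.918 in Mixl1-induced and 9.26% ± 1.39 in Mixl1 KO libraries. Of the γ chain total, Lamc3 made up 0.125% ± 0.0284 in Mixl1-induced and 1.75% ± 0.388 in Mixl1 KO libraries. Groups did not overlap in any of these shares, and each had an exact two-sided permutation p of 0.1, the smallest that 3 against 3 libraries allow.

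Summed over each class, the γ chains came to 107, 98.2 and 82.0 in the Mixl1-induced libraries, against 47.3, 47.7 and 47.3 in the Mixl1 KO libraries (CPM per kb). The β chains came to 79.6, 78.3 and 68.5 in the Mixl1-induced libraries, against 107, 106 and 117 in the Mixl1 KO libraries, and the α chains to 59.6, 59.8 and 49.1 in the Mixl1-induced libraries, against 61.7, 70.7 and 64.6 in the Mixl1 KO libraries. The γ sum was thus the highest of the classes in every Mixl1-induced library and the lowest in every Mixl1 KO library. This order depends on the exon length used: by the longest transcript, the β sum averaged 116.2 and the γ sum 106.3 in Mixl1-induced libraries, and the γ sum remained the lowest class, at 53.3, in Mixl1 KO libraries. The direction of each class between the groups held with either length.

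**Figure D3:**
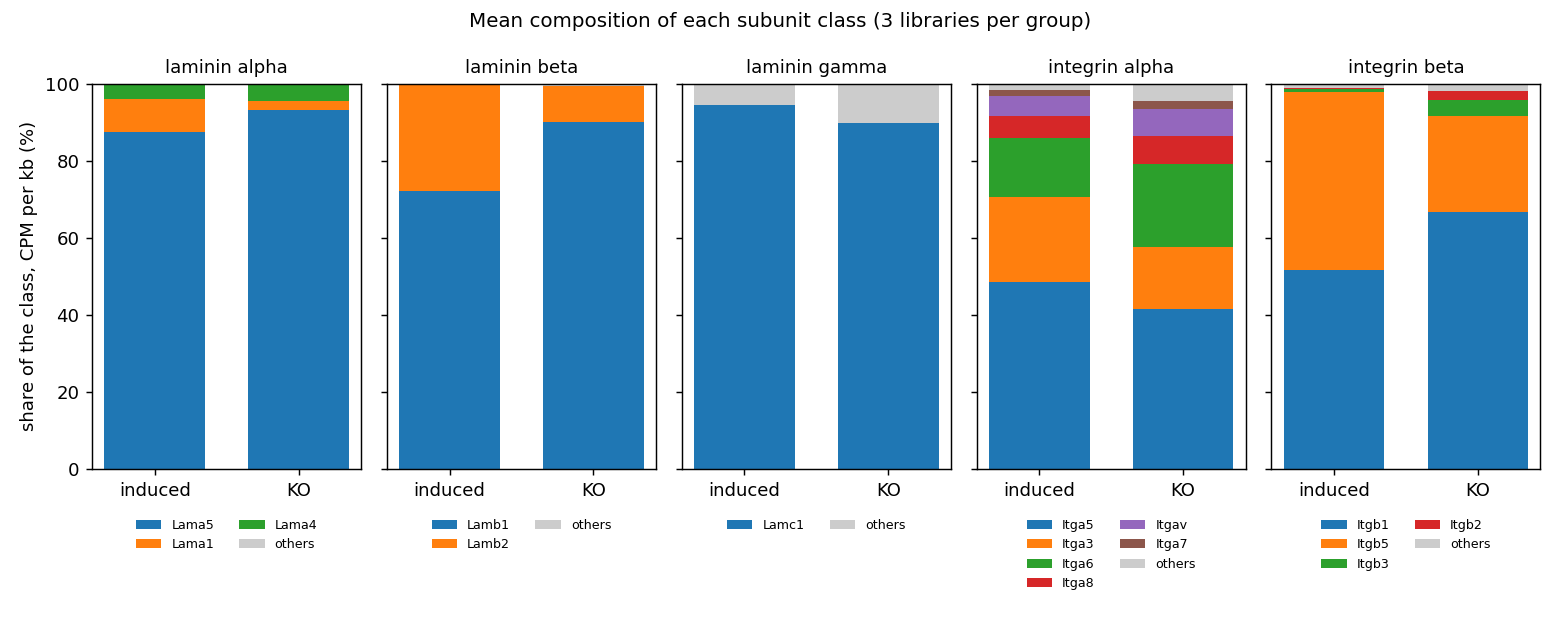
Mean share of the main genes in each subunit class, from CPM per kb over 3 libraries a group, with the rest of the class pooled as others. Lamb2 and Itgb5 take larger shares in Mixl1-induced libraries, and Lamb1 and Itgb1 take larger shares in Mixl1 KO libraries.

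The proteins that tie laminin into a basement membrane were higher or did not pass. Hspg2, which encodes perlecan, had 896, 856 and 676 CPM in the Mixl1-induced libraries, against 459, 496 and 429.9 CPM in the Mixl1 KO libraries (log2 fold change 0.81, SE 0.111, adjusted p = 0.00051). The third Mixl1-induced library was the lowest of its group, but all 3 stayed above all Mixl1 KO libraries. Agrn, encoding agrin, had 601, 620.2 and 521 CPM in the Mixl1-induced libraries, against 463, 492 and 471 CPM in the Mixl1 KO libraries (log2 fold change 0.29, SE 0.0555, adjusted p = 0.000152). Nid2, one of the nidogens, had 565, 551 and 512 CPM in the Mixl1-induced libraries, against 422, 432 and 497 CPM in the Mixl1 KO libraries (log2 fold change 0.27, SE 0.0568, adjusted p = 0.000433). Both of these differences were small and without overlap between the groups. The other nidogen gene, Nid1, averaged 83.5 ± 9.64 CPM in Mixl1-induced and 91.1 ± 12 CPM in Mixl1 KO libraries and did not pass (log2 fold change -0.12, adjusted p = 0.368); without the third Mixl1 KO library its adjusted p was 0.0463, at a log2 fold change of -0.21. Of these 4 genes 3 were higher, 0 lower.

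Fibronectin and the secreted adhesion proteins were higher without exception among the 4 that could be tested. Fn1, which had the most reads per kb of exon of all ligands in Mixl1-induced cells, had 2261, 2250.0 and 2128 CPM in the Mixl1-induced libraries, against 928, 933 and 940.0 CPM in the Mixl1 KO libraries. It was 2.37-fold higher (log2 fold change 1.25, SE 0.0448, adjusted p = 2.88e-16), a gap many times the spread within either group. It lies on chromosome 1 from 71585520 to 71653200 on the minus strand (ENSMUSG00000026193.15). Spon1, which encodes the floor plate protein F-spondin, had 70.6, 65.0 and 59.4 CPM in the Mixl1-induced libraries, against 0.488, 0.772 and 0.474 CPM in the Mixl1 KO libraries. It was close to absent in Mixl1 KO libraries, where its reads numbered 10, 14 and 9, so the 112-fold difference rests on few reads on that side (log2 fold change 6.81, SE 0.136, adjusted p = 7.34e-21). With unstranded counts the log2 fold change of Spon1 was 5.63. Spon1 lies on chromosome 7 from 113765998 to 114043370 on the plus strand (ENSMUSG00000038156.16). Tnc, encoding tenascin C, averaged 52.1 ± 4.37 CPM in Mixl1-induced and 40.5 ± 2.80 CPM in Mixl1 KO libraries (log2 fold change 0.37, adjusted p = 7.67e-05; SD, n = 3 each). Spon2, encoding the related F-spondin family protein mindin, averaged 3.06 ± 0.278 CPM in Mixl1-induced and 1.82 ± 0.164 CPM in Mixl1 KO libraries (log2 fold change 0.75, adjusted p = 0.00228). Vtn, encoding vitronectin of blood plasma, was not tested: it had 2, 1 and 0 reads in the Mixl1-induced libraries, against 0, 1 and 1 reads in the Mixl1 KO libraries.

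**Figure D4:**
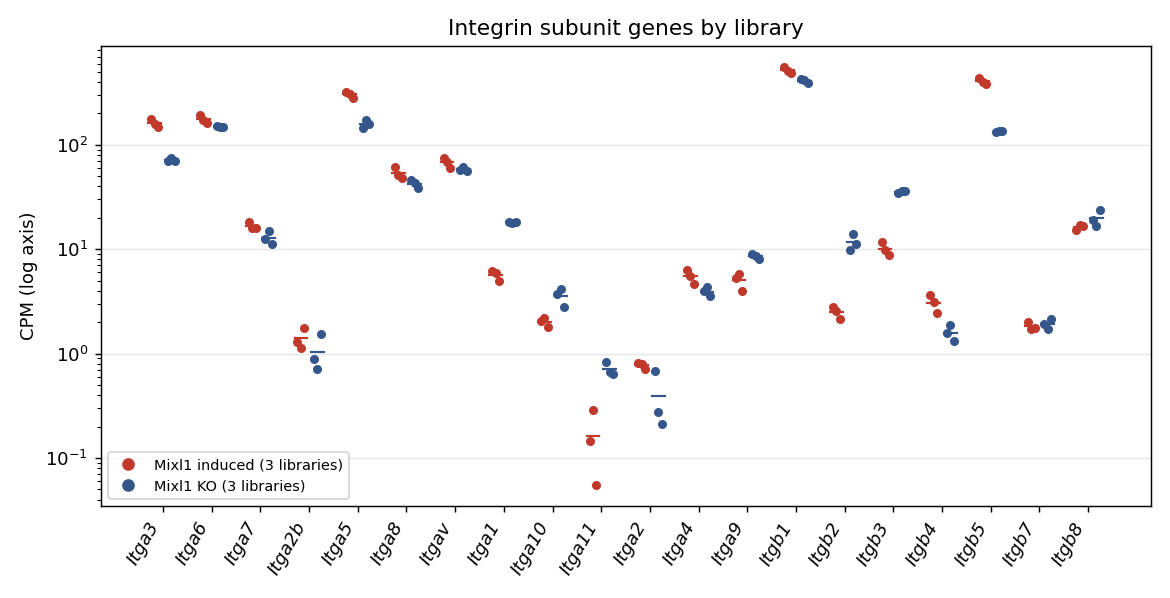
CPM of the tested integrin subunits in each library on a log axis, with a bar at the group mean; Mixl1-induced libraries stand left of Mixl1 KO libraries. Itgb5 and Itga3 show the largest gaps among abundant subunits, and Itgb2, Itgb3 and Itga1 lie lower in Mixl1-induced libraries.

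The α subunits of the laminin receptors were all higher, 3 of 3. Itga3, whose receptor binds laminins with Lama3 or Lama5, had 176, 157 and 149 CPM in the Mixl1-induced libraries, against 70.6, 74.5 and 69.4 CPM in the Mixl1 KO libraries. It was 2.25-fold higher (log2 fold change 1.17, SE 0.0574, adjusted p = 1.6e-13), with no overlap. Itga6, a receptor subunit for a broad range of laminins, had 191, 175 and 161 CPM in the Mixl1-induced libraries, against 153, 147 and 149 CPM in the Mixl1 KO libraries. The difference was small, again without overlap (log2 fold change 0.23, SE 0.0536, adjusted p = 0.000799). Itga7, a laminin receptor subunit best known in muscle, averaged 16.8 ± 1.25 CPM in Mixl1-induced and 12.9 ± 1.82 CPM in Mixl1 KO libraries (log2 fold change 0.38, adjusted p = 0.00264; SD, n = 3 each). Per kb of exon, Itga3 exceeded Itga6 in Mixl1-induced libraries and was below it in Mixl1 KO libraries, with ratios of 1.46, 1.43 and 1.46 in the Mixl1-induced libraries, against 0.731, 0.80 and 0.737 in the Mixl1 KO libraries. By the longest transcript this ratio averaged 0.812 and 0.424, so Itga3 was then below Itga6 in both groups.

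The α subunits that recognise the RGD sequence of fibronectin and its relatives were higher in 3 of 4 cases. Itga5, the main fibronectin receptor subunit, had 323, 305 and 282 CPM in the Mixl1-induced libraries, against 144, 173 and 158 CPM in the Mixl1 KO libraries and was 1.92-fold higher (log2 fold change 0.94, SE 0.0632, adjusted p = 1.25e-09). It lies on chromosome 15, whose tested genes had a median log2 fold change of -0.33, and its change relative to that median was 1.27. Itga8, a subunit known from kidney development, averaged 53.3 ± 6.49 CPM in Mixl1-induced and 42.3 ± 3.88 CPM in Mixl1 KO libraries (log2 fold change 0.33, adjusted p = 0.00248). Itgav, the partner of several β subunits, averaged 67.8 ± 7.86 CPM in Mixl1-induced and 58.4 ± 2.87 CPM in Mixl1 KO libraries (log2 fold change 0.22, adjusted p = 0.0121; SD, n = 3 each). The groups overlapped for Itgav, and without the first Mixl1-induced library the adjusted p was 0.105. Itga2b, the platelet fibrinogen receptor subunit, averaged 1.40 ± 0.313 CPM in Mixl1-induced and 1.04 ± 0.429 CPM in Mixl1 KO libraries and did not pass (log2 fold change 0.42, adjusted p = 0.231). Without the third Mixl1 KO library its adjusted p was 0.0434, at a log2 fold change of 0.80.

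The collagen-binding α subunits went the other way in 3 of 4 cases, all at low levels. Itga1, which prefers collagen IV, had 6.17, 5.94 and 4.91 CPM in the Mixl1-induced libraries, against 18.1, 17.8 and 18.3 CPM in the Mixl1 KO libraries. It was 3.17-fold lower (log2 fold change -1.67, SE 0.108, adjusted p = 9.94e-12), with no overlap. Itga11, a subunit of fibroblasts, averaged 0.162 ± 0.116 CPM in Mixl1-induced and 0.707 ± 0.107 CPM in Mixl1 KO libraries (log2 fold change -2.11, adjusted p = 0.000717; SD, n = 3 each). Its reads numbered 3, 5 and 1 in the Mixl1-induced libraries, and its log2 fold change was -2.72 without Mixl1-induced replicate 2 and -1.36 with unstranded counts. Itga10, a cartilage subunit, averaged 2.02 ± 0.191 CPM in Mixl1-induced and 3.56 ± 0.693 CPM in Mixl1 KO libraries (log2 fold change -0.82, adjusted p = 0.00124). Itga2, a subunit of epithelia and platelets, was the exception at 0.776 ± 0.0585 CPM in Mixl1-induced and 0.390 ± 0.256 CPM in Mixl1 KO libraries (log2 fold change 0.95, adjusted p = 0.0467). That call was lost under more alternatives than any other member's, among them leaving out any 1 of the 3 Mixl1-induced libraries or Mixl1 KO replicate 2 or 3, where the adjusted p lay between 0.0741 and 0.199. Without Mixl1 KO replicate 1 its log2 fold change was 1.65. Itga2 and Itga1 are neighbours on chromosome 13, with 21 kb between them. Feeder fibroblast markers were measured beside these genes. Together, 10 of them summed to 630.3, 621 and 461 CPM in the Mixl1-induced libraries, against 918, 1005 and 829 CPM in the Mixl1 KO libraries. Of these 10, 3 were higher, 5 lower and 2 did not pass. Acta2 averaged 43.3 against 246 CPM in Mixl1-induced and Mixl1 KO libraries, and Pdgfrb 22.9 against 111 CPM. With Acta2 and Pdgfrb left out, the sums of the groups overlapped. The part of the feeder markers in the result was not tested.

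The remaining α subunits, which bind VCAM1 and an alternatively spliced part of fibronectin among other ligands, were split. Itga4 averaged 5.50 ± 0.838 CPM in Mixl1-induced and 3.93 ± 0.387 CPM in Mixl1 KO libraries (log2 fold change 0.49, adjusted p = 0.00961; SD, n = 3 each), and without the first Mixl1-induced library its adjusted p was 0.0769. Itga9 averaged 5.04 ± 0.949 CPM in Mixl1-induced and 8.56 ± 0.538 CPM in Mixl1 KO libraries (log2 fold change -0.76, adjusted p = 6.04e-05). Over all 13 tested α subunits 8 were higher, 4 lower and 1 did not pass.

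Among β subunits, Itgb1, Itgb5 and Itgb4 were higher, Itgb2, Itgb3 and Itgb8 were lower, and Itgb7 did not pass. Itgb1, the partner of most α subunits and the common chain of the laminin, collagen and fibronectin receptors, had 557, 512 and 489.6 CPM in the Mixl1-induced libraries, against 425, 417 and 387 CPM in the Mixl1 KO libraries. The difference was modest with no overlap (log2 fold change 0.34, SE 0.0511, adjusted p = 5.22e-06). Itgb5, which pairs with Itgav in a vitronectin receptor, had 433, 399 and 383 CPM in the Mixl1-induced libraries, against 131, 134 and 134 CPM in the Mixl1 KO libraries. At 3.04-fold higher it had the largest change among the integrin subunits called higher (log2 fold change 1.6, SE 0.0492, adjusted p = 1.69e-17). Itgb3, the other vitronectin receptor partner of Itgav and also of Itga2b, had 11.7, 9.83 and 8.79 CPM in the Mixl1-induced libraries, against 34.4, 36.3 and 35.8 CPM in the Mixl1 KO libraries. It was 3.50-fold lower (log2 fold change -1.81, SE 0.0900, adjusted p = 9.41e-14), so these alternative partners of Itgav moved in opposite directions. Itgb4, the hemidesmosome subunit that pairs with Itga6, averaged 3.07 ± 0.583 CPM in Mixl1-induced and 1.58 ± 0.280 CPM in Mixl1 KO libraries (log2 fold change 0.96, adjusted p = 0.000604; SD, n = 3 each).

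Itgb5 lies on chromosome 16 from 33829665 to 33949338 on the plus strand (ENSMUSG00000022817.15), and its promoter is shown as that of the most raised integrin gene, from RefSeq (GRCm38.p6) and with TAAT on either strand in capitals.
Itgb5 promoter, chr16:33829415-33829714, plus strand: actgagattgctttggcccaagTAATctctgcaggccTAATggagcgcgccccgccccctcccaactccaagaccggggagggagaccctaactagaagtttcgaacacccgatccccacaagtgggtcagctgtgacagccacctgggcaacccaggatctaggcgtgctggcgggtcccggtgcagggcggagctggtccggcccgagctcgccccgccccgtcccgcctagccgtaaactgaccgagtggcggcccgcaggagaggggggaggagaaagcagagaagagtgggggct
The window holds 2 TAAT matches, 3 GGGCGG matches and 0 TATAA matches.

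Itgb2, the β subunit of leukocyte integrins, had 2.80, 2.57 and 2.13 CPM in the Mixl1-induced libraries, against 9.90, 14.0 and 11.1 CPM in the Mixl1 KO libraries. It was 4.63-fold lower (log2 fold change -2.21, SE 0.160, adjusted p = 6.6e-11), with no overlap. Macrophage markers moved with it: 9 of 9 were lower, and their sum was 55.1, 57.5 and 46.1 CPM in the Mixl1-induced libraries, against 315, 455 and 404 CPM in the Mixl1 KO libraries. Most of it is Lyz2, and the other 8 summed to 19.5, 19.7 and 15.5 CPM in the Mixl1-induced libraries, against 63.7, 95.9 and 81.4 CPM in the Mixl1 KO libraries. Their part in the Itgb2 result was not tested. Megakaryocytes carry Itga2b and Itgb3, and the 6 megakaryocyte markers other than Itga2b summed to 0.530, 0.514 and 0.273 CPM in the Mixl1-induced libraries, against 1.66, 3.03 and 2.11 CPM in the Mixl1 KO libraries. Most of that sum is Pf4, which was lower (log2 fold change -2.47, adjusted p = 3.79e-06). Of the others, Ppbp and Gp9 had 0 reads, and the rest had at most 3 reads in any library. Whether megakaryocytes were present, and any part of theirs in the Itgb3 result, was not tested. Itgb8, a subunit that activates latent TGF-β, averaged 16.5 ± 0.933 CPM in Mixl1-induced and 19.8 ± 3.54 CPM in Mixl1 KO libraries (log2 fold change -0.27, adjusted p = 0.0369; SD, n = 3 each); the groups overlapped, and leaving out 1 library raised the adjusted p to as much as 0.27. Itgb7, a lymphocyte subunit, averaged 1.83 ± 0.171 CPM in Mixl1-induced and 1.92 ± 0.226 CPM in Mixl1 KO libraries (log2 fold change -0.07, adjusted p = 0.803), and Itgb6, an epithelial subunit, was not tested at 0, 0 and 0 reads in the Mixl1-induced libraries, against 1, 0 and 0 reads in the Mixl1 KO libraries.

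Within the β class, Itgb1 made up 51.7% ± 0.0944 in Mixl1-induced and 66.7% ± 1.45 in Mixl1 KO libraries, and Itgb5 46.3% ± 0.133 in Mixl1-induced and 24.9% ± 0.914 in Mixl1 KO libraries (CPM per kb; SD, n = 3 each). Itgb1 and Itgb5 thus stood near each other in Mixl1-induced libraries, at 127 ± 8.48 CPM per kb and 114 ± 7.06 CPM per kb, but Itgb1 was still the higher in every library. In Mixl1 KO libraries they averaged 100.4 and 37.5 CPM per kb. The ratio of Itgb5 to Itgb3 was 61.6, 67.4 and 72.4 in the Mixl1-induced libraries, against 6.33, 6.14 and 6.23 in the Mixl1 KO libraries, a 10.8-fold difference. In the α class, Itga5 made up 48.5% ± 0.640 in Mixl1-induced and 41.4% ± 2.33 in Mixl1 KO libraries, Itga3 22.2% ± 0.294 in Mixl1-induced and 16.2% ± 0.219 in Mixl1 KO libraries, and Itga6 15.3% ± 0.0855 in Mixl1-induced and 21.4% ± 1.25 in Mixl1 KO libraries. Groups did not overlap for any of these shares, and the exact two-sided permutation p was 0.1 for each, the smallest possible here.

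Both sides of the contact were higher in sum in Mixl1-induced cells, the receptors by more than the ligands only when Itgb5 is counted. Summed per kb of exon over all members, the integrins came to 401, 369 and 349.6 in the Mixl1-induced libraries, against 228, 234 and 221 in the Mixl1 KO libraries, a 1.64-fold difference. The ligands came to 705, 688 and 608 in the Mixl1-induced libraries, against 477, 497 and 503 in the Mixl1 KO libraries, a 1.35-fold difference. The ratio of ligands to integrins within a library was therefore lower in Mixl1-induced cells, at 1.76, 1.86 and 1.74 in the Mixl1-induced libraries, against 2.09, 2.12 and 2.27 in the Mixl1 KO libraries. With Fn1 left out the ratio was 1.28 ± 0.0622 in Mixl1-induced and 1.81 ± 0.0869 in Mixl1 KO libraries (SD, n = 3 each), a wider gap between the groups than with Fn1. On the receptor side, Itgb5 made the largest part of the difference, at 114 against 37.5 CPM per kb in Mixl1-induced and Mixl1 KO libraries. By library, Itgb5 had 122, 112 and 108 CPM per kb in Mixl1-induced cells, against 37.0, 37.8 and 37.8 in Mixl1 KO cells. With Itgb5 taken off the integrin sums, receptors and ligands were higher by about the same fold. The ratios of ligands to integrins then overlapped between the groups, so the contrast between ligands and receptors rests on that gene.

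Individual ligand and receptor pairs differed in direction. All laminin chains over the α subunits that bind laminin (Itga3, Itga6 and Itga7) gave 4.54, 4.83 and 4.35 in the Mixl1-induced libraries, against 6.99, 7.21 and 7.61 in the Mixl1 KO libraries, lower in every Mixl1-induced library. The α subunits below the line each rose, most of all Itga3, at 28.1 against 12.5 CPM per kb. Among laminins the γ sum was higher and the α and β sums lower, so the ratio does not show a general fall of laminin transcripts. Fn1 over Itga5 gave 2.95, 3.12 and 3.19 in the Mixl1-induced libraries, against 2.72, 2.28 and 2.51 in the Mixl1 KO libraries, higher in every Mixl1-induced library, though Fn1 and Itga5 each rose. For all ratios the exact two-sided permutation p was 0.1, the smallest that 3 against 3 libraries allow, so none can pass 0.05. These are ratios of transcripts and say nothing of protein or of binding.

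**Figure D5:**
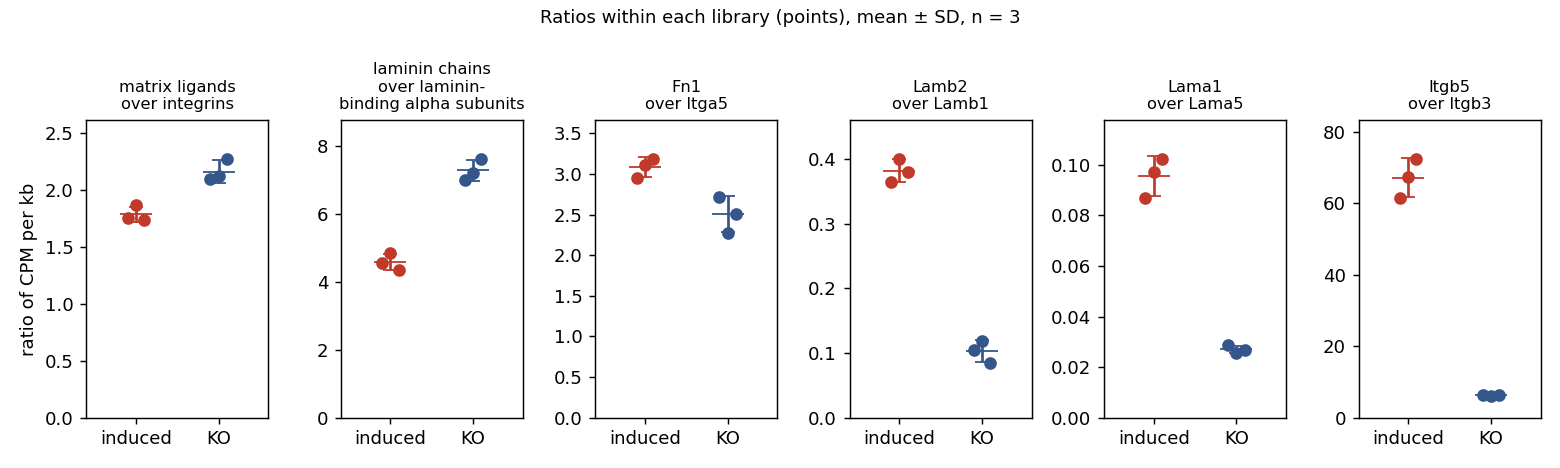
Ratios of CPM per kb within each library (points), with mean and SD over 3 libraries a group; each panel has its own linear axis from 0. Ligands over integrins and laminins over their α subunits are lower in Mixl1-induced libraries, and the other 4 ratios are higher, with no overlap in any panel.

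Genes that work around this contact were counted from lists chosen by function. Over all tested genes 31.0% were higher and 31.6% lower, and the counts of each list are to be read beside these shares. The intracellular adaptors that link integrins to actin gave 6 higher, 11 lower and 4 not passed of 21, with a median log2 fold change of -0.11. Parva, encoding the adaptor α-parvin, averaged 101 against 68.4 CPM in Mixl1-induced and Mixl1 KO libraries (log2 fold change 0.56, adjusted p = 2.26e-09), and Bcar1, encoding the scaffold p130Cas, 196 against 129 CPM (log2 fold change 0.60, adjusted p = 4.13e-10). Actn1, encoding an α-actinin, averaged 675 against 462 CPM (log2 fold change 0.55, adjusted p = 5.92e-10). Zyx, encoding the focal adhesion protein zyxin, was lower at 269 against 532 CPM (log2 fold change -0.98, adjusted p = 2e-14).

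Of 11 matrix receptors that are not integrins, 8 were higher and 3 lower, at a median log2 fold change of 0.38. Bcam, a receptor for laminins with Lama5, averaged 112 against 74.9 CPM in Mixl1-induced and Mixl1 KO libraries (log2 fold change 0.58, adjusted p = 8.77e-08). Sdc1, encoding the heparan sulfate proteoglycan syndecan 1, averaged 404 against 201 CPM (log2 fold change 1.01, adjusted p = 5.98e-14). The collagen receptor genes moved apart, Ddr1 at 340.0 against 242 CPM (log2 fold change 0.49, adjusted p = 1.49e-08) and Ddr2 at 3.12 against 9.17 CPM (log2 fold change -1.54, adjusted p = 3.64e-08).

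Basement membrane genes outside the rule gave 6 higher, 6 lower and 4 not passed of 16 tested, 3 of the 19 listed having too few reads. The 4 with the smallest p were all lower: Ntn4, a netrin that binds laminin (log2 fold change -1.97, adjusted p = 1.4e-10), Fras1, an extracellular protein of the epithelial basement membrane (log2 fold change -1.52, adjusted p = 2.56e-16), Smoc2 (log2 fold change -1.23, adjusted p = 2.22e-09) and Fbln2, encoding fibulin 2 (log2 fold change -1.08, adjusted p = 9.03e-11). Other integrin ligands gave 5 higher, 4 lower and 4 not passed of 13 tested of 17 listed. Among them Ccn2, a matricellular protein, averaged 163 against 36.5 CPM in Mixl1-induced and Mixl1 KO libraries (log2 fold change 2.15, adjusted p = 1.09e-16). Tnr, encoding tenascin R, was called higher with 29, 27 and 16 reads in the Mixl1-induced libraries, against 0, 1 and 1 reads in the Mixl1 KO libraries (adjusted p = 2.1e-07), too few for a fold. Spp1, encoding osteopontin, a ligand of the Itgav and Itgb3 pair, was lower at 77.4 against 448 CPM (log2 fold change -2.53, adjusted p = 4.38e-06), as was Tgfb1 at 75.6 against 108 CPM (log2 fold change -0.51, adjusted p = 1.75e-08). Spp1 is also made by macrophages, whose marker sums are given above.

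Parietal and visceral endoderm, which secrete much laminin, and endothelium were measured beside these genes. Of 11 tested endoderm markers 4 were higher, 4 lower and 3 not passed, and the sum over all 13 listed was 822, 817 and 738 CPM in the Mixl1-induced libraries, against 678, 728 and 693 CPM in the Mixl1 KO libraries. Most of that sum is Sparc, which did not pass (log2 fold change 0.09, adjusted p = 0.124), and without Sparc and the member Lama1 the other 11 summed to 53.9, 56.5 and 57.7 CPM in the Mixl1-induced libraries, against 34.0, 36.3 and 33.8 CPM in the Mixl1 KO libraries. Gata6 was higher at 22.2 against 0.582 CPM (log2 fold change 5.26, adjusted p = 5.45e-17). Gata4 was higher at 12.1 against 0.474 CPM (log2 fold change 4.66, adjusted p = 8.12e-14). Gata6 and Gata4 made up most of the sum of those 11 in the Mixl1-induced libraries. Without them, the remaining markers summed lower in every Mixl1-induced library than in any Mixl1 KO library. Dab2 was lower (log2 fold change -1.23, adjusted p = 4.75e-10), and Ttr had 0 reads in every library. Endothelial markers summed to 48.2, 47.3 and 43.4 CPM in the Mixl1-induced libraries, against 6.44, 5.95 and 5.74 CPM in the Mixl1 KO libraries, with Kdr (log2 fold change 3.78, adjusted p = 2.71e-18), Tek (log2 fold change 3.27, adjusted p = 7.37e-11) and Pecam1 (log2 fold change 1.18, adjusted p = 0.00159) higher, Cdh5, the defining endothelial cadherin, lower (log2 fold change -0.95, adjusted p = 0.00578), and 4 of 8 with too few reads. Kdr makes up most of that sum in the Mixl1-induced libraries. The other 7 summed to 9.84, 9.66 and 7.37 CPM in the Mixl1-induced libraries, against 3.61, 2.98 and 3.42 CPM in the Mixl1 KO libraries. Most of this remainder in the Mixl1-induced libraries is Tek, which averaged 5.89 CPM there and 0.605 CPM in Mixl1 KO libraries. With Tek also left out, the sums of the groups overlapped. The part of either marker set in the member results was not tested.

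Counting rules touch a few members. Reads that fall on exons shared by genes of the same strand are not in the gene counts but in the files' row of ambiguous reads, which concerns Itga10 (with Gm42957) and Itga1 (with Gm49395). Of the reads that lie on Itga11, Itgb4 and Itga2b on either strand, 25.4%, 12.8% and 10.3% came from the strand opposite the gene, and they are not in the values above.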

How the data were processed

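Messenger RNA libraries in 2 groups of 3 were compared: Mixl1-induced and Mixl1 KO, as the sample titles name them. The authors deposited raw read counts per gene, with columns for unstranded, sense and antisense reads; bcl2fastq, STAR and DESeq2 with the mm10 genome are named in the submitters' processing notes, with versions and annotation release not given in the sources used here. Libraries were made with a stranded kit, per the labels' protocols. Column 4 was used because it held 96.2% to 96.3% of stranded gene reads. Rows naming no gene held 15.1% to 17.6% of reads and stayed out of library sizes and tests. The authors' deposited DESeq2 table was not used here.

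Identifiers were matched to GENCODE M21 (GRCm38), which named 55230 of 55471; the rest held 0.0011% of gene reads. The main test was edgeR 4.0.16 (R 4.3.3): filterByExpr, TMM scaling, a robust quasi-likelihood fit with group as its term, and Benjamini-Hochberg adjustment over all 15091 tested genes at 0.05. Tests were two-sided. Fold changes are Mixl1-induced over Mixl1 KO, except where a gene is called so many fold lower, which gives the inverse. CPM use TMM-scaled library sizes; levels between genes are CPM per kb of merged exons. The common biological coefficient of variation was 0.0486. Ratios and shares were compared by an exact two-sided permutation test. The test against a 2-fold change was edgeR's glmTreat. Alternatives were DESeq2 1.42.0 (size factors and Wald test), limma 3.58.1 (voom), upper-quartile scaling, filters of none and of 1 CPM in 3 libraries, unstranded counts, a replicate block, leaving out each library, subtracting the chromosome's median change, the longest transcript's length and leaving out Fn1.

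Counts of any pair of libraries within a group differed by 2.25 to 5.18 times sampling noise (chi-square per degree of freedom), and between groups by 79.6 to 91.3 times, so no library was counted as a repeat of another. No batch is given in the labels. The test was checked on simulated data, where the recovery criterion was loosened for genes with few reads after a first criterion was missed.

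The members and the gene lists were chosen with earlier results of these data known. Members are named except 1, which enters the counts and sums but is not reported here. Values in each library are given for called members changed at least 2-fold that reach a mean of 1 CPM in the higher group, and for members that reach a mean of 100 CPM in either group. From each other list, up to 4 called genes with the smallest p are named, and genes at 0 reads were named after their values were seen.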

Additional observations from a re-analysis of the deposited data

How the results depend on the processing

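Of 543 member results under 14 alternatives with a test, 520 kept their direction and their side of the threshold, and 31 of 39 members kept both under all 14. The other 8 were Lama2, Nid1, Itga4, Itga2b, Itgav, Itga2, Itgb7 and Itgb8. Subtracting the chromosome's median, which gives no p, kept the direction of 38 of 39. Lama2, Itga2 and Itgb8 were also not called by DESeq2's Wald test (adjusted p = 0.114, 0.141 and 0.0582). Itgb7 turned to 0.26 when its chromosome's median was subtracted and ranged from -0.15 to 0.019 when 1 library was left out. Tested against a 2-fold change, 642 genes were higher and 986 lower over all genes, 5 and 6 over members, 3 and 2 over ligands, and 2 and 4 over integrins; a stricter question gives fewer calls by construction. The median log2 fold change of integrins ranged from 0.20 (without the first Mixl1-induced library) to 0.30 when 1 library was left out. With the longest transcript's length, the share of Lamb2 differed between the groups by 13.3 points (18.3 with merged exons), and that of Lamc1 by 5.77 points (4.78). Recomputing the class sums and the single-gene ratios with that length, and the marker sums without single genes, was chosen after seeing the data. The log2 ratio of ligands to integrins, -0.28, was -0.50 without Fn1. With Itgb5 taken off the integrin sums, also chosen after seeing the data, the groups overlapped in the ratio of ligands to integrins.

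Over all tested genes, deviations of same-numbered libraries from their group means correlated at 0.007, 0.078 and 0.067. Such weak correlations cannot exclude a replicate effect shared by some genes. Among members, the third library was the lowest of its group for 33 of 39 in Mixl1-induced and 21 of 39 in Mixl1 KO libraries. A replicate block gave 4789 higher and 4858 lower genes, with the members at 22 higher and 14 lower. Members under about 1 CPM are limited by depth, and no test of a ratio or share could pass 0.05 with 3 libraries a group.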

Other observations

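Enzymes that cut the matrix and their inhibitors gave 6 higher, 6 lower and 2 not passed of 14, beside 31.0% higher and 31.6% lower over all tested genes. Adamts9, a secreted protease that cleaves proteoglycans, averaged 163 ± 21.6 CPM in Mixl1-induced and 14.1 ± 0.917 CPM in Mixl1 KO libraries (log2 fold change 3.54, SE 0.0974, adjusted p = 1.72e-12; SD, n = 3 each, edgeR). Mmp9, a gelatinase, averaged 9.49 ± 1.81 CPM in Mixl1-induced and 37.2 ± 1.38 CPM in Mixl1 KO libraries (log2 fold change -1.96, SE 0.0982, adjusted p = 2.71e-13), and Mmp15, a membrane-bound metalloprotease, 35.5 ± 2.49 CPM in Mixl1-induced and 77.0 ± 8.34 CPM in Mixl1 KO libraries (log2 fold change -1.11, SE 0.0744, adjusted p = 2.01e-10). Timp3, an inhibitor that stays bound to the matrix, averaged 17.3 ± 0.495 CPM in Mixl1-induced and 65.2 ± 4.6 CPM in Mixl1 KO libraries (log2 fold change -1.91, SE 0.0691, adjusted p = 3.1e-16).

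Among the 10 epiblast markers, 5 were higher and 5 lower. Sox2 was higher (log2 fold change 1.86, adjusted p = 6.32e-18), and Pou5f1 (log2 fold change -0.68, adjusted p = 1.42e-11), Nanog (log2 fold change -1.59, adjusted p = 1.63e-16) and L1td1 (log2 fold change -1.89, adjusted p = 2.19e-15) were lower. The 10 feeder fibroblast markers were mixed, with 3 higher, 5 lower and 2 not passed. Among those with the smallest p, Thy1 was higher (log2 fold change 0.93, adjusted p = 1.01e-06), and Dcn (log2 fold change -2.64, adjusted p = 1.34e-10), Pdgfrb (log2 fold change -2.27, adjusted p = 5.99e-09) and Acta2 (log2 fold change -2.51, adjusted p = 3.78e-20) were lower. The macrophage markers with the smallest p were Adgre1 (log2 fold change -2.65, adjusted p = 4.24e-10), Tyrobp (log2 fold change -3.01, adjusted p = 8.07e-13), Fcer1g (log2 fold change -2.36, adjusted p = 2.64e-08) and C1qa (log2 fold change -2.52, adjusted p = 1.05e-09).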
